A study of Populus sp. cv. 'Okanese' with 18 samples.

Results

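The 150 poplar genes described here had the largest difference in transcript level between early evening (EE) and late morning (LM) leaves. They were taken from 31033 genes in the table of read counts. Counts were expressed as CPM, counts per 1000000 counts of the library, and log2(CPM + 1) was averaged over the 9 EE libraries and over the 9 LM libraries. Genes with a mean of 512 CPM or more over all libraries were set aside, which left 30807, and 8 genes of the circadian clock were removed. The 150 genes with the largest EE minus LM difference were kept. The genes were thus chosen by their EE minus LM difference, which is given below as a description without a test. The soil water level took no part in the choice, and its effects were tested.

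Many plant genes are transcribed at a set time of day. Their timing follows light, temperature and the circadian clock, a network of transcription factors and other proteins that act on each other in turn over the day. In Arabidopsis, pseudo-response regulators (PRR) act as repressors from morning into evening, and ELF3 and LUX belong to the evening complex, which represses its targets around nightfall. Many genes that are active toward evening are low in a leaf sampled in the morning.

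The leaves came from the hybrid poplar Populus × 'Okanese', grown from cuttings in a greenhouse at a photoperiod of 15 h, for 42 days before the water treatment and 21 days under it. They were fully expanded and had developed under the water treatment. Groups were named by time of day, EE at 16 h and LM at 10 h, and by gravimetric soil water content (SWCg) as a percentage of field capacity. EE30 and LM30 were under severe drought at 30 % SWCg, EE50 and LM50 under moderate drought at 50 %, and EE80 and LM80 were the controls at 80 %. Every group had 3 libraries, lettered A, B and C, and the labels do not say that each came from a different tree, so that p-values measure only the spread between libraries. No gene was altered in any group. A numbered field in the column headers differs between EE and LM libraries. The headers do not say what it marks, so that its part and that of the time of day cannot be told apart.

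The 18 libraries held 17348563 to 48110546 counts, with a median of 24020818.5. Replicates differed by more than counting error, with chi-square per degree of freedom between 5.18 and 38.1 over pairs of libraries in 1 group. The files name genes by identifier only. For this reason no role is given for the 150 genes, and the leaf origin of the samples was not checked with marker genes. Positions are those of the P. trichocarpa v4.1 annotation that the count table carries.

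The 150 genes ranged from moderately to strongly expressed in the evening and were low in the morning. The mean level ran from 7.30 to 819 CPM in EE, with a median of 55.6 CPM, against 0.0403 to 75.8 CPM in LM, with a median of 3.82 CPM. The EE minus LM difference in log2(CPM + 1) lay between 2.72 and 7.09, with a median of 3.20, which is a 9.18-fold difference in CPM + 1. It exceeded 5 in 11 genes and 4 in 31 genes, and it was under 3 in 49 genes. Every EE library was above every LM library in all 150 genes, a pattern seen in 31.8% of the 23700 genes tested. Since the choice of genes rested on this contrast, nothing is read from that count. The median EE minus LM difference of all tested genes was 0.23 on this scale, and 0.02 to 0.05 at the 3 water levels after TMM (trimmed mean of M-values) normalization. In RNA from whole leaves, fewer cells of a type and less RNA per cell cannot be told apart.

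**Figure D1:**
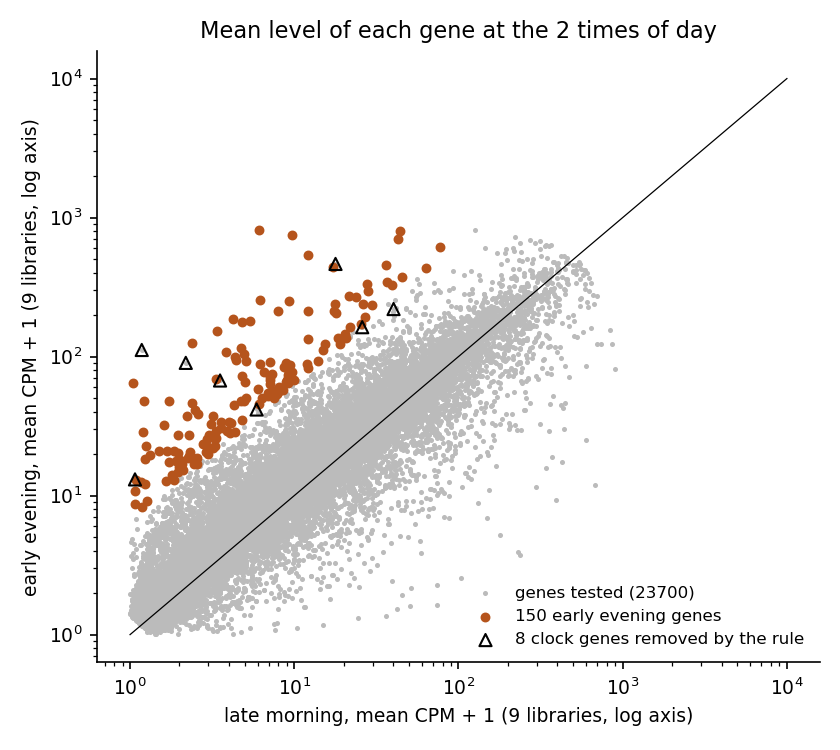
Mean CPM + 1 over the 9 early evening libraries (vertical, log axis) against the 9 late morning libraries (horizontal, log axis) for the 23700 tested genes (grey), the 150 early evening genes (orange) and the 8 clock genes that the rule removed (triangles). The line marks equal levels, and the 150 genes form the upper left edge of the cloud, at 7.30 to 819 CPM in EE and 0.0403 to 75.8 CPM in LM.

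Potri.014G159800 had the largest difference, 7.09. This gene of 9 exons lies on chromosome 14 from 11394051 to 11396839 on the plus strand. It had 909, 1220 and 539 CPM in EE30, 843, 894 and 778 CPM in EE50 and 748, 858 and 579 CPM in EE80. In the morning it had 6.56, 4.91 and 3.36 CPM in LM30, 8.19, 3.33 and 4.60 CPM in LM50 and 6.71, 3.20 and 4.91 CPM in LM80. The gene was the most abundant of the 150 in EE libraries and was near the middle of their range in LM libraries. Its level in EE30 varied more between replicates than it differed from EE80 (889 ± 341 CPM in EE30 against 728 ± 140 CPM in EE80, SD, n = 3 each).

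Potri.009G041800 was next with a difference of 6.28. It lies on chromosome 9 from 4900798 to 4909101 on the minus strand and overlaps Potri.009G041900 on the same strand, a gene with a difference of 1.42. Its level was lowest at 586, had a median of 732 and was highest at 960 CPM in EE, against 7.49, 8.12 and 10.9 CPM in LM. The third, Potri.015G140800, was close to absent in the morning. It received 1240 to 3133 counts in each EE library, against 0, 4 and 0 counts in LM30, 1, 0 and 1 in LM50 and 1, 0 and 1 in LM80. In CPM the EE libraries ran from 46.3 over a median of 65.0 to 76.4, against 0 to 0.197 CPM in LM. It occupies chromosome 15 from 14748257 to 14750269 on the plus strand.

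The other 7 of the 10 genes of highest rank differed by 5.23 to 5.73. Potri.017G079000 had a median of 125 CPM in EE (111 to 137) and 1.57 CPM in LM (0.491 to 1.89). Potri.001G281700 had a median of 146 CPM in EE (135 to 175) and 2.32 CPM in LM (1.56 to 3.71). Potri.008G131400 was more abundant, with a median of 539 CPM in EE (483 to 589) and 10.5 CPM in LM (5.41 to 14.9). In these 3 genes the EE libraries lay close together and the LM libraries were relatively wider apart.

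Potri.009G108200 had a median of 195 CPM in EE (127 to 237) and 2.56 CPM in LM (1.87 to 6.93). Potri.016G028900, a gene of 22 exons, had a median of 241 CPM in EE (199 to 320) and 5.21 CPM in LM (4.46 to 5.96). Potri.017G067600 had a median of 45.5 CPM in EE (44.0 to 52.1) and 0.188 CPM in LM (0 to 0.442), and 1 LM library had no count of it. Potri.015G093600 had a median of 171 CPM in EE (158 to 210) and 3.62 CPM in LM (3.10 to 5.34). None of the 10 genes had an EE library near the LM range.

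**Figure D2:**
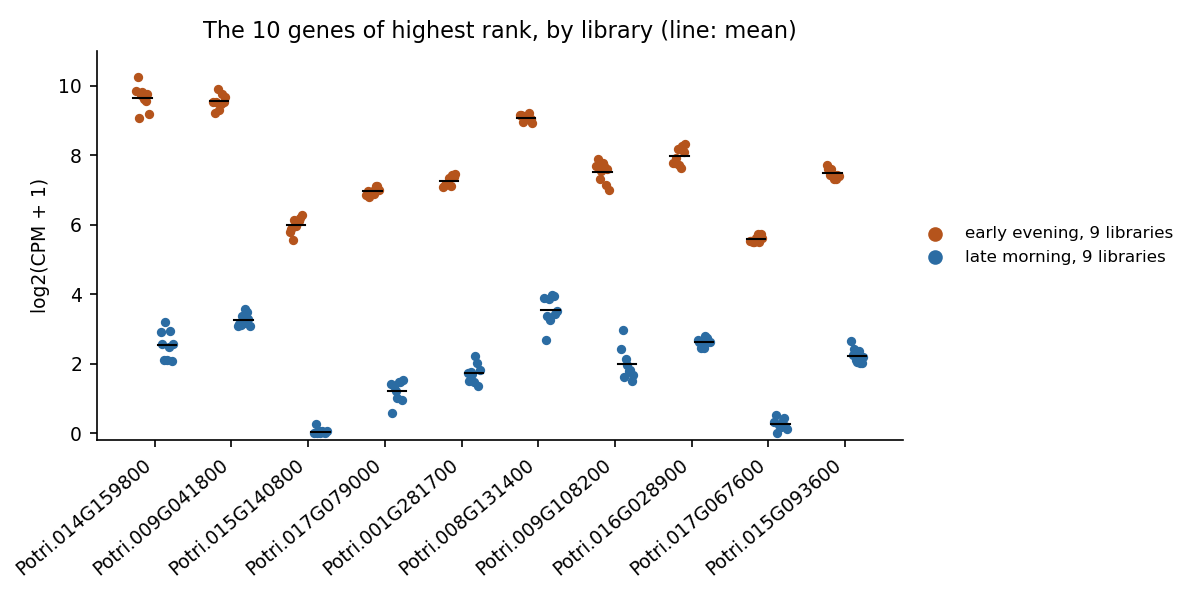
log2(CPM + 1) of the 10 genes of highest rank in each library (points) at early evening (orange, left of each pair) and late morning (blue, right), with the mean of 9 libraries as a line. In every gene the EE points lie well above the LM points, and Potri.015G140800 and Potri.017G067600 are at or near 0 in LM.

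The most abundant genes of the evening were not all those with the largest difference. The 5 with the highest mean in EE were Potri.014G159800, Potri.004G155300 with 804 CPM, Potri.009G041800 with 752 CPM, Potri.006G031700 with 697 CPM and Potri.014G141500 with 616 CPM. Per kilobase of exon the order was different, with Potri.004G155300, a gene of 1 exon, at 800 CPM per kb in EE, Potri.014G141500 at 539 and Potri.014G159800 at 460. In all, 43 genes averaged over 100 CPM in EE and 4 averaged under 10 CPM. The 10 with the most counts took 35.2% of the counts of all 150 genes in EE.

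A few genes also had a clear morning level. Potri.014G141500 had the highest LM mean and ran from 521 to 720 CPM in EE against 50.2 to 91.2 CPM in LM. Potri.003G089600 ran from 392 to 482 CPM in EE against 57.7 to 68.2 CPM in LM, and it overlaps Potri.003G089500 on the opposite strand. Potri.004G072900 ran from 359 to 393 CPM in EE against 38.4 to 54.6 CPM in LM. Potri.004G155300 (34.7 to 50.9 CPM in LM) and Potri.006G031700 (34.6 to 47.4 CPM in LM) completed the 5 of highest LM level. At the other end, 27 genes averaged under 1 CPM in LM. Of these, 5 had no count in 1 or more LM libraries, namely Potri.015G140800, Potri.017G067600, Potri.014G159900, Potri.009G101400 and Potri.001G010000, and no gene was without counts in any EE library.

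The lower limit of the list fell within a dense range of values. The last 3 genes kept were Potri.005G210700 (2.73), Potri.019G023700 (2.72) and Potri.004G004000 (2.72). Just outside were Potri.005G037801 (2.72), Potri.013G106100 (2.72) and Potri.007G072600 (2.71). Their levels were as different as those within the list, with 27.7 CPM in EE against 3.36 CPM in LM for Potri.005G210700 and 11.9 CPM in EE against 0.963 CPM in LM for Potri.013G106100.

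The clock genes that the rule removed covered the same range. Potri.008G135200, which the study names ZTL, differed by 6.56 and would have ranked 2, with 90.6 to 127 CPM in EE against 0.0496 to 0.315 CPM in LM. The ZTL protein of Arabidopsis is a light-sensing F-box protein that targets clock proteins for degradation. The other gene named ZTL, Potri.010G105700, differed by 5.38. PRR5 (Potri.012G005900) differed by 4.75, and the LUX genes Potri.009G035000 and Potri.001G243600 differed by 4.25 and 3.58. ELF3 (Potri.006G233800) differed by 2.83. These 6 would have ranked within 150, while PRR7 (Potri.010G215200, 2.65) and the other PRR5 gene (Potri.015G002300, 2.49) fell below the limit.

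EE exceeded LM at each water level. The median EE minus LM difference in log2(CPM + 1) of the 150 genes was 3.14 at 30 % SWCg, 3.23 at 50 % and 3.31 at 80 %, and all 150 genes differed by more than 2 at each level. In the edgeR fit, which uses TMM normalization and no pseudocount of 1 CPM, the medians were 3.45, 3.47 and 3.37. The order of the 3 levels was thus not the same on the 2 scales. Nor was the order of the genes. At 30, 50 and 80 % SWCg the fit gave 9.38, 10.9 and 11.3 for Potri.015G140800, against 7.27, 7.04 and 6.89 for Potri.014G159800. When genes were ranked from the 6 libraries of 1 water level alone, 134 of the 150 ranked within 150 at 30 %, 140 at 50 % and 132 at 80 %. At every level 111 did so. All these libraries took part in the choice of the genes, so the values by water level describe the list and are no independent repeat.

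Together the 150 genes took a nearly constant share of the evening library at all 3 water levels. The share was 1.66 ± 0.103% of all counts in EE30, 1.70 ± 0.0360% in EE50 and 1.68 ± 0.0330% in EE80 (mean ± SD of 3 libraries). The morning share came to 0.128 ± 0.00625% for LM30, 0.122 ± 0.0117% for LM50 and 0.117 ± 0.00661% for LM80. At each time of day the mean ± SD ranges of the 3 water levels overlapped.

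**Figure D3:**
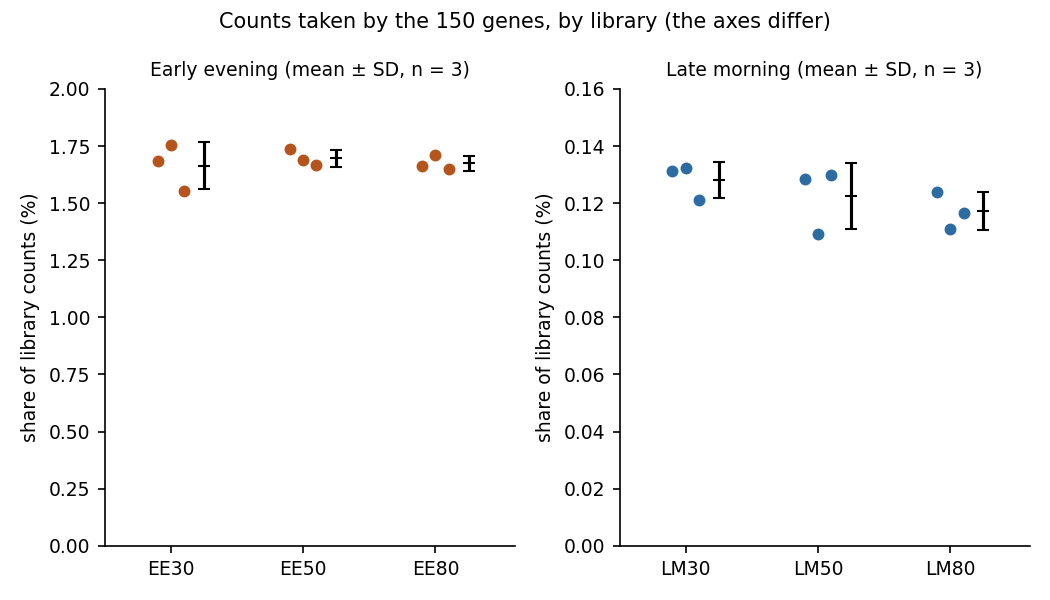
Share of the library counts (%) taken by the 150 genes in each library (points), with the mean ± SD of the 3 libraries of a group (black), at early evening (left) and late morning (right, on a smaller axis). The EE means are 1.66 to 1.70% and the LM means 0.117 to 0.128%.

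The effect of severe drought in the evening depended on the test used. EE30 was compared with EE80 by the quasi-likelihood F test of edgeR with Benjamini-Hochberg adjustment over all 23700 tested genes, among them all 150. An adjusted p below 0.05 was called. Of the 150, 2 rose and none fell, which is 1.33% of them, against 1.94% of all tested genes called in either direction and 0.827% called as higher. Before adjustment, 43 of the 150 had a p below 0.05, against 17.6% of all tested genes. Of these 43, 31 were higher in EE30 and 12 lower, whereas all tested genes split into 2114 higher and 2049 lower. Other tests called more genes in both directions. DESeq2 called 12 of the 150, 8 higher and 4 lower, against 4.36% of all tested genes. The likelihood ratio test of edgeR with robust dispersion called 28, 21 higher and 7 lower, against 6.65%. A fit of the EE libraries alone called 5, 4 higher and 1 lower, against 1.55%. The shares of all tested genes in these other tests count both directions, and their split by direction is not given here. Neither of the 2 genes called by the quasi-likelihood test on all libraries was among these 5. The median log2 fold change was 0.09 in the 150 genes and 0.01 in all. The 95% interval lay within a 2-fold change either way in 132 of the 150 genes (88%), against 81.5% of all genes.

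Potri.008G186200 was the more strongly changed of the 2. This gene of 1 exon lies on chromosome 8 from 12962814 to 12963432 on the minus strand. It had 50.7, 57.8 and 39.9 CPM in EE30, 36.4, 45.3 and 37.1 CPM in EE50 and 15.0, 35.3 and 20.6 CPM in EE80. All EE30 libraries were above all EE80 libraries, and EE80 B came close to the lowest of them. The log2 fold change was 1.15 (SE 0.253, edgeR adjusted p = 0.0327). In the morning it had 2.32, 4.47 and 1.73 CPM in LM30, 0.801, 0.927 and 1.07 CPM in LM50 and 0.835, 0.894 and 1.19 CPM in LM80, again without overlap between LM30 and LM80. That morning difference of 1.52 was not called (SE 0.398, edgeR adjusted p = 0.0933).

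Potri.011G150700, on chromosome 11 from 17774829 to 17778549 on the minus strand, was the other. It had 25.4, 18.2 and 24.2 CPM in EE30, 20.6, 15.8 and 21.3 CPM in EE50 and 9.05, 14.1 and 15.7 CPM in EE80. EE30 did not overlap EE80, and the log2 fold change was 0.88 (SE 0.189, edgeR adjusted p = 0.0309). In LM30 it had 1.62, 1.33 and 1.63 CPM, within the range of LM80 at 0.970, 1.60 and 1.64 CPM. Both calls depended on single libraries. That of Potri.008G186200 was lost without EE30 A, EE30 B, EE80 A or EE80 C (edgeR adjusted p between 0.112 and 0.154), and that of Potri.011G150700 without EE30 A, EE30 C, EE80 A or EE80 C (between 0.0513 and 0.140).

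Deviations of libraries with the same letter in EE30 and EE80 had correlations of 0.206 (A), 0.197 (B) and 0.378 (C). Libraries of different letters were not compared, so these values do not show that the letters mark pairs. The comparison was also made with the replicate letter as a block, and its calls depend on that unproven pairing. With the block, 10 of the 150 genes were called, 7 higher and 3 lower, against 3.64% of all tested genes in either direction. Beside the 2 genes above, those higher were Potri.011G122400 (log2 fold change 1.01), Potri.014G118400 (1.01), Potri.001G130100 (0.58), Potri.001G347600 (0.37) and Potri.017G148700 (0.33). Those lower were Potri.001G459200 (-0.75), Potri.017G141600 (-0.70) and Potri.002G165000 (-0.45). In this blocked fit the edgeR adjusted p lay between 0.00591 and 0.0415.

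Potri.014G118400 was nearest to the threshold without the block and is described for that reason, chosen after its values were seen. It had 64.5, 82.0 and 47.5 CPM in EE30, 40.8, 62.3 and 63.8 CPM in EE50 and 30.4, 42.2 and 29.0 CPM in EE80. EE30 lay above EE80 throughout (log2 fold change 1.01, SE 0.261, edgeR adjusted p = 0.0585). Its morning levels were 8.84, 14.9 and 5.93 CPM in LM30, 4.85, 4.14 and 4.22 CPM in LM50 and 4.53, 2.87 and 2.58 CPM in LM80, also without overlap between LM30 and LM80 (1.48, SE 0.310, edgeR adjusted p = 0.0729).

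The pattern of Potri.001G459200 was the opposite. This gene of 1 exon had 49.7, 59.7 and 54.5 CPM in EE30, 85.0, 101 and 94.6 CPM in EE50 and 98.8, 115 and 79.0 CPM in EE80. The EE30 libraries were below those of both other groups, but the fold change of -0.76 was not called without the block (edgeR adjusted p = 0.0941). Potri.017G141600 had 34.4, 40.9 and 26.6 CPM in EE30, against 62.7, 55.2 and 53.8 CPM in EE80. Again the groups did not overlap.

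**Figure D4:**
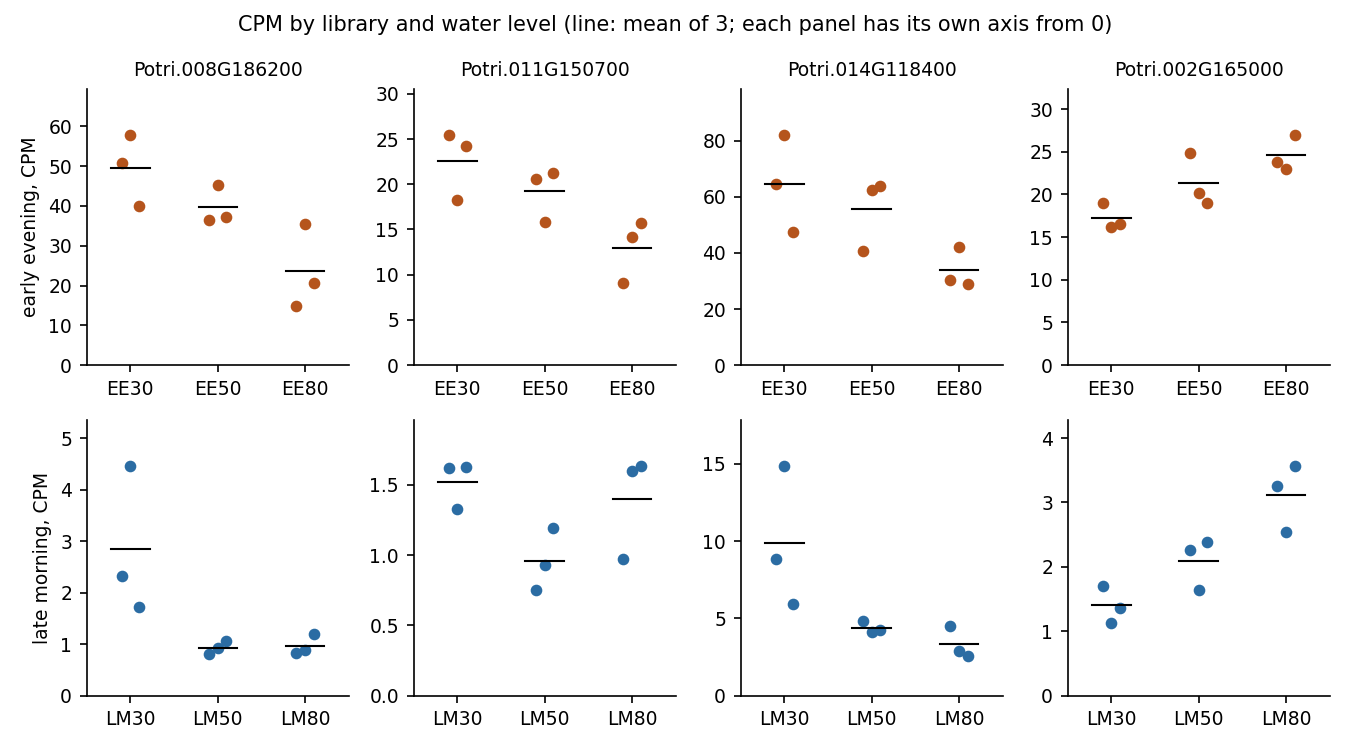
CPM of 4 of the 150 genes in each library (points) by water level, with the mean of 3 libraries (line), at early evening (upper row) and late morning (lower row), each panel with its own linear axis from 0. Potri.008G186200 and Potri.014G118400 are highest at 30 % SWCg at both times, Potri.011G150700 at early evening, and Potri.002G165000 is lowest at 30 % SWCg at both times.

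Moderate drought in the evening gave no call by the quasi-likelihood test. In EE50 against EE80, it called none of the 150 genes and 0.0127% of all tested genes. DESeq2 called none of the 150, and the likelihood ratio test 1, which was higher in EE50, against 0.527% of all. Before adjustment 13 of the 150 had a p below 0.05, against 6.38% of all, with 10 higher and 3 lower in EE50, while all tested genes split into 618 higher and 893 lower. The fold changes of the 150 lay between -0.40 and 0.78 on the log2 scale, with a median of 0.05 against -0.00112 for all genes, and Potri.008G186200 had the highest. The 95% interval was within a 2-fold change in 143 of the 150 genes (95.3%), against 84.4% of all genes.

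In the morning the number of genes called under severe drought depended on the test. In LM30 against LM80, 1 of the 150 genes fell and none rose by the quasi-likelihood test, against 0.0675% of all tested genes called and 0.0506% called as lower. DESeq2 and the likelihood ratio test called mostly increases among the 150. How all tested genes split by direction in these tests is not given here, so the split is not read as particular to the 150. DESeq2 called 11 of the 150 genes, 10 higher and 1 lower, against 2.27% of all, and the likelihood ratio test 19, 17 higher and 2 lower, against 2.93%. A fit of the LM libraries alone, in which not all of the 150 genes passed the filter on low counts, called none, against 0.03%. The gene that fell by the quasi-likelihood test, Potri.002G165000, on chromosome 2 from 12624578 to 12625654 on the plus strand, had 1.71, 1.13 and 1.36 CPM in LM30, 2.26, 1.64 and 2.39 CPM in LM50 and 3.26, 2.54 and 3.57 CPM in LM80. The groups LM30 and LM80 did not overlap, and the log2 fold change was -1.17 (SE 0.193, edgeR adjusted p = 0.0364). In the evening it had 18.9, 16.2 and 16.5 CPM in EE30, 24.9, 20.1 and 19.0 CPM in EE50 and 23.8, 23.0 and 27.0 CPM in EE80, so that EE30 was below EE80 in all libraries, with a log2 fold change of -0.44 that was not called without the block (edgeR adjusted p = 0.1002). The morning call was lost when any 1 of LM80 B, LM80 C, LM30 B or LM30 C was left out, or any 1 of EE30 A, EE50 B, EE80 C or LM50 A, which enter only the shared estimate of spread (edgeR adjusted p between 0.0523 and 0.233).

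Before adjustment, 34 of the 150 genes had a p below 0.05 in LM30 against LM80, against 15.1% of all tested genes. Of these, 26 were higher in LM30 and 8 lower, while all tested genes split into 1738 higher and 1837 lower. The median log2 fold change was 0.08 in the 150 genes and -0.01 in all. Some genes had too few morning counts for a usable fold change. Potri.001G010000 received 0, 1 and 0 counts in LM30 and 4, 3 and 1 counts in LM80, and it entered the test through its evening level. Potri.011G122400 had 0.700, 1.13 and 0.892 CPM in LM30, against 0.189, 0.125 and 0.298 CPM in LM80. At such levels the fold changes were imprecise. Over all 150 genes, not only those with few counts, the median SE was 0.22 for LM30 against LM80 and 0.17 for EE30 against EE80. In LM30 against LM80 the 95% interval was within a 2-fold change in 102 of the 150 genes (68%), against 79.2% of all genes.

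LM50 against LM80 gave no call by edgeR among the 150 genes or elsewhere (0%). Here 7 of the 150 genes had a p below 0.05 before adjustment, against 1.97% of all tested genes, 2 of them higher and 5 lower in LM50, while all tested genes split into 176 higher and 292 lower. DESeq2 and the likelihood ratio test called none of the 150. The median log2 fold change was 0.04, against -0.01 for all genes. The 95% interval was within a 2-fold change in 115 of the 150 genes (76.7%), against 85.1% of all genes.

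**Figure D5:**
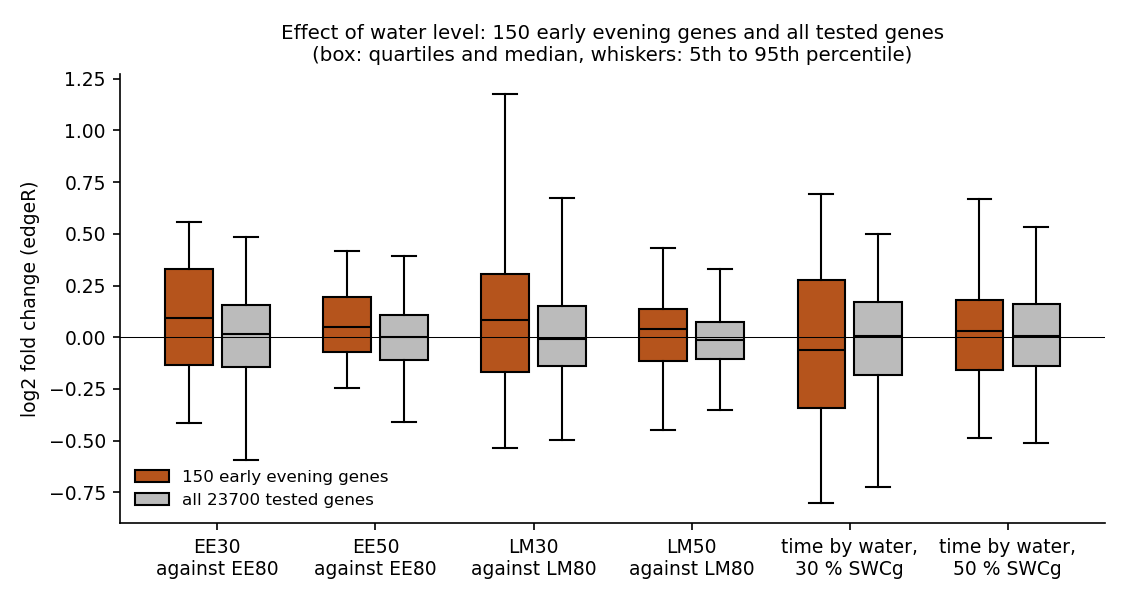
Log2 fold changes from edgeR in the 4 water contrasts and in the 2 time-by-water terms, for the 150 early evening genes (orange, left of each pair) and all 23700 tested genes (grey, right). Boxes show the median and quartiles and whiskers the 5th to 95th percentile. The medians of the 150 genes lie between -0.06 and 0.09 and those of all genes between -0.01 and 0.01.

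Whether drought acted differently at the 2 times was tested with the time-by-water term, the change from 80 % SWCg in EE minus that in LM. At 30 % SWCg edgeR called none of the 150 genes and 0% of all tested genes, and 19 of the 150 had a p below 0.05 before adjustment, against 8.61% of all. At 50 % SWCg none was called, again with 0% of all genes, and 12 of the 150 had a p below 0.05 before adjustment, against 4.43% of all. DESeq2 and the likelihood ratio test called none of the 150 for either term. All 12 terms at 50 % SWCg were positive, while all tested genes split into 564 positive and 486 negative. At 30 % SWCg 12 were positive and 7 negative (63.2% positive), near the 58.1% positive of all tested genes. Only 86 of the 150 genes had an interval within 2-fold at 30 % (57.3%) and 96 at 50 % (64%), against 71.3% and 73.1% of all genes. For the remaining genes the interval reached beyond 2-fold.

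The gene with the smallest p at 30 % SWCg was Potri.001G359200, whose time-by-water term was 0.91 (SE 0.237, edgeR adjusted p = 0.441). It had 41.9, 40.7 and 34.6 CPM in EE30 against 23.9, 28.8 and 31.3 CPM in EE80, without overlap. It had 3.89, 3.69 and 3.04 CPM in LM30 against 3.42, 5.40 and 4.07 CPM in LM80, with overlap. At 50 % SWCg it was Potri.011G150700, with a term of 1.16 (SE 0.351, edgeR adjusted p = 0.984).

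The order of the group means was also examined on TMM-normalized log2 CPM. In the evening the means fell in order from 30 to 50 to 80 % SWCg in 67 of the 150 genes (44.7%), against 26.8% of all tested genes, and rose in that order in 32 (21.3%), against 23%. All EE30 libraries were above all EE80 libraries in 41 genes, against 12.3% of all, and below them in 20, against 10.3%. This balance depended on the scaling. With CPM from column sums, the evening means fell in order in 52 genes, against 17.3% of all, and rose in 51, against 34%. On that scale EE30 was above EE80 throughout in 34 genes, against 6.41%, and below in 30, against 16.8%.

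The morning means fell in order from 30 to 50 to 80 % SWCg in 48 of the 150 genes, against 20.7% of all tested genes, and rose in 27, against 22.4%. With column sums they fell in 52, against 28.9%, and rose in 18, against 14.8%. LM30 was above LM80 in all libraries in 17 genes, against 8.54%, and below in 6, against 8.94%. With column sums these were 21 genes, against 10.9%, and 6, against 5.92%. Of the sum of squares among the 9 libraries of a time of day, water level took 38.9% over the 150 genes in EE, against 30.5% over all tested genes, and 32.9% in LM, against 31.1%. Means of 3 libraries differ between groups also without an effect of water, so a large part of such shares can be spread between libraries.

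Replicates of the 150 genes were as close in the evening as those of other genes and farther apart in the morning. The median SD within groups was 0.16 on the log2 scale in EE, against 0.16 for all tested genes, and 0.34 in LM, against 0.18. The rule favours genes with low LM levels (median 3.82 CPM), and no comparison was made with genes of equal level. The closest in EE was Potri.012G105000, with an SD of 0.049 and values of 40.8 to 47.4 CPM over all 9 EE libraries. Next were Potri.014G017200 (0.050, 52.4 to 66.1 CPM) and Potri.001G360300 (0.051, 40.8 to 48.1 CPM).

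The widest were Potri.005G079400 (SD 0.63), Potri.006G036000 (0.61) and Potri.008G120000 (0.55). Potri.006G036000 had 18.7, 29.2 and 8.37 CPM in EE30, 18.7, 17.7 and 10.09 CPM in EE50 and 19.97, 18.1 and 15.1 CPM in EE80. Potri.008G120000 had 54.2, 54.0 and 107 CPM in EE30, 52.3, 65.2 and 102 CPM in EE50 and 40.7, 79.2 and 85.9 CPM in EE80. In each EE group the C library was thus the lowest for Potri.006G036000 and the highest for Potri.008G120000. The sources do not say what the letters mark. In each EE group the C library also held the most counts (33917159 in EE30, 30616906 in EE50 and 41035506 in EE80). A part of library size in these patterns was not tested. Of single libraries, EE30 B had the highest median of the 150 genes relative to their own EE mean (0.11 on the log2 scale) and EE80 C the lowest (-0.11). In the morning LM30 A was highest (0.16) and LM50 B lowest (-0.20). The same median over all tested genes was between -0.01 and 0.01 in every library.

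The genes were spread over 18 of the 19 chromosomes. The largest numbers were 22 of the 3665 genes of chromosome 1 (0.600%), 15 of 2049 on chromosome 5 (0.732%), 14 of 1500 on chromosome 14 (0.933%) and 13 of 2117 on chromosome 2 (0.614%). Chromosome 12 held 2 of 1106 (0.181%) and chromosome 7 none of 1203. Their exons summed to a median length of 1860.5 bases, against 1965 bases in all tested genes, with a median of 5 exons in both. A single exon made up 30 of the 150 genes (20%), against 14.8% of all tested genes.

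Some of them were neighbours. Within 50 kb of each other lay 12 pairs, which comprised 22 genes. Potri.014G159900 begins 16552 bases beyond the gene of highest rank, Potri.014G159800, on the same strand and differed by 4.54. It had 27.9, 44.4 and 18.0 CPM in EE30, 27.2, 33.8 and 23.5 CPM in EE50 and 24.8, 30.6 and 20.5 CPM in EE80, with B highest and C lowest in every EE group, the same order of libraries as in Potri.014G159800. Whether reads of the pair could be confused is not known, and reads that mapped to several places were not counted.

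A run of 4 genes lay on the minus strand of chromosome 15 between 13938107 and 13992636. Potri.015G128200 was by far the most abundant of them with 210 CPM in EE against 6.92 CPM in LM, and Potri.015G128100 (7.30 CPM in EE, 0.178 CPM in LM), Potri.015G128800 (17.7 CPM in EE, 1.24 CPM in LM) and Potri.015G129000 (24.5 CPM in EE, 1.94 CPM in LM) lay beside it. Potri.009G041100 lay 38605 bases from Potri.009G041800 on the opposite strand and had 440 CPM in EE against 16.2 CPM in LM.

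The closest pair without overlap was Potri.017G148600 and Potri.017G148700, which are transcribed away from each other with 753 bases between them. They had 49.2 and 88.7 CPM in EE against 5.34 and 7.95 CPM in LM. Potri.005G170300 and Potri.005G170400 overlap by 66 bases on opposite strands, with 17.5 and 33.0 CPM in EE against 1.41 and 2.98 CPM in LM. The counting did not use strand, so reads in the shared bases could not be assigned to either gene by strand. In all, 13 of the 150 genes overlap another gene.

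The other 5 pairs lay 14996 to 34872 bases apart. They were Potri.001G459200 and Potri.001G459500 (differences 2.77 and 3.23), Potri.013G001000 and Potri.013G001600 (3.15 and 3.56), Potri.013G013800 and Potri.013G014400 (2.74 and 3.19), Potri.014G034200 and Potri.014G034600 (3.03 and 2.93) and Potri.017G141600 and Potri.017G141950 (4.27 and 3.40).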

How the data were processed

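Per the labels and the study's methods, stranded single-end RNA-seq libraries were trimmed with Trimmomatic (version: not given in the sources used here). HISAT2 2.2.1 and SAMtools 1.3.1 were used with the P. trichocarpa v4.1 genome, and featureCounts 2.0.1 for counting at default options, without strand and without multi-mapping reads. The authors deposited the table of raw counts per gene.

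Testing was limited to genes whose average log2 CPM lay between -2 and 9. The model (edgeR 4.0.16, TMM, quasi-likelihood F test, R 4.3.3) had 6 groups, and Benjamini-Hochberg adjusted p below 0.05 was called. The filter used the mean over all 18 libraries, which all 150 genes passed, some through their evening level. DESeq2 1.42.0, a likelihood ratio test, other filters and scalings, a replicate block and leaving out libraries were alternatives. Counts and plots used Python 3.11.15, pandas 2.3.3 and matplotlib 3.10.9.

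Only between EE30 and EE80 did every correlation of deviations by letter exceed 0.1 (EE50 with EE80 0.0701 to 0.184, LM30 with LM80 -0.111 to 0.120, LM50 with LM80 0.0854 to 0.331). The replicate block nevertheless covered all 18 libraries, with the letters entered within each time of day. Blocked counts of the other contrasts thus rest on letters that did not meet this limit. Named genes were the 10 of highest rank, 3 on each side of the limit, the 5 highest at each time, the extremes of replicate spread, close neighbours, up to 6 called genes per contrast and the clock genes. The genes and lists were chosen with earlier results of these data known. Planned groupings by function, promoter motifs and tissue markers were not run, since gene names and genome sequence were not used here.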

Additional observations from a re-analysis of the deposited data

Results flagged for a closer look

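Potri.001G004600 drew attention because its libraries differed in opposite directions between 30 and 80 % SWCg at the 2 times of day, although neither difference was called (edgeR adjusted p = 0.609 in EE and 0.178 in LM). It had 108, 114 and 111 CPM in EE30, against 126, 127 and 133 CPM in EE80, and 16.0, 20.1 and 15.5 CPM in LM30, against 12.4, 12.7 and 12.6 CPM in LM80. Every EE30 library was below every EE80 library and every LM30 library above every LM80 library. The time-by-water term at 30 % SWCg was -0.52 on the log2 scale (SE 0.176) and did not pass the test (edgeR adjusted p = 0.476).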

How the results depend on the processing

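Counts of called genes depended on the tool. For EE30 against EE80, where the count was 2, DESeq2 called 12 of the 150 genes, the likelihood ratio test with robust dispersion 28, the replicate block 10 and a fit of each time of day alone 5. For LM30 against LM80, where it was 1, DESeq2 called 11, the likelihood ratio test 19, the replicate block 10 (7 higher and 3 lower, against 1.43% of all tested genes) and the fit of each time alone 0. For EE50 against EE80 the likelihood ratio test called 1, and otherwise these alternatives called 0 of the 150 genes in that contrast, in LM50 against LM80 and in the time-by-water terms, which a fit of 1 time cannot give. Leaving out 1 library gave 0 to 9 called genes for EE30 against EE80, 0 to 2 for LM30 against LM80 and 0 for the other 4. The lowest counts in the first came without EE30 A, EE80 A or EE80 C (0 each) and EE30 B (1). For LM30 against LM80 it was 2 without LM80 A. The highest in the first came without LM80 A (9), EE80 B or LM30 B (5 each) and EE30 C or EE50 A (4 each). The shares of all tested genes called without each library are not given here, so these counts do not show a change particular to the 150 genes. DESeq2 size factors, no filter and filterByExpr left these counts within 1.5 times. Over the 14 fold changes of named genes and all alternatives, none of the values reversed, 297 kept their side of the threshold, 19 were no longer called and 32 became called. Of the 32, 9 came from the replicate block. Most of these 9 were named because the block had called them, so that their change was fixed in advance. Only the 2 calls in EE30 against EE80 and the 1 in LM30 against LM80 could be lost. All 19 losses thus fell on these, while most of the 14 fold changes had no call to lose. The cause of these differences was not tested.

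Membership depended on the pseudocount, since 105 of the 150 genes were kept with 0.1 and 94 with 10 in place of 1. Of the 10 genes of highest rank, 6 stayed among the first 10 with either pseudocount. TMM library sizes kept 134, no upper limit 143 and leaving out 1 library 146 or more. Every correlation by letter exceeded 0.1 only between EE30 and EE80, so the block count for LM30 against LM80 rests on letters that did not meet this limit. Whether the letters mark pairs is not known for any group. Low morning counts limit the precision in LM.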

Other observations

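The upper limit on abundance set aside 226 genes, and 7 of them differed between the times as much as the 150 genes did. Potri.004G020500 averaged 4747 CPM in EE against 99.6 CPM in LM, a difference of 5.62 in log2(CPM + 1). Potri.011G025200 averaged 3522 CPM in EE against 175.9 CPM in LM (4.35), and Potri.009G116400 averaged 1220 CPM in EE against 27.7 CPM in LM (5.42). The others were Potri.010G044100 (4.89), Potri.001G066400 (4.30), Potri.014G072300 (2.95) and Potri.006G127200 (2.95). Potri.001G066400 had the widest range in EE, from 927 to 2268 CPM, and averaged 1842 ± 453 CPM in EE30 and 1701 ± 333 CPM in EE50, against 1112 ± 263 CPM in EE80 (SD, n = 3 each).

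The genes next to the 150 on the chromosomes were set beside all tested genes as a description. Of 285 such neighbours that were not among the 150, 49 had an EE minus LM difference over 1 (17.2%), against 10.3% of all tested genes, and their median difference was 0.31 against 0.23. Overlapping gene models are among the neighbours, and their part in these values was not tested.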
